A study of Mus musculus with 6 samples.

Results

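Clock transcripts were followed in the pancreas of adult mice that had lost Ptf1a, the transcription factor that maintains acinar cell identity. The genes were chosen by name: Arntl, Clock, Per1, Per2, Per3, Cry1, Cry2, Dbp, Nr1d1 and Nr1d2. All 10 are among the 10245 genes of the deposited table. It was asked whether their levels differed between the genotypes, and whether the individual libraries stood at the same phase of the clock.

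RNA was taken from whole pancreas of 3 control mice, Ptf1a(CreER/+), and 3 Ptf1a cKO mice, Ptf1a(CreER/fl). Every mouse carried the tamoxifen-inducible CreER allele at the Ptf1a locus. The authors describe this allele as making no PTF1A, so the controls were functionally heterozygous for Ptf1a and not wild type. Every mouse was given 3 daily gavages of tamoxifen in corn oil at 0.25 mg/g and was killed on day 14. No group therefore lacked Cre or tamoxifen. The enzyme is made where Ptf1a is active, in acinar cells, and Ptf1a transcripts were still found in the Ptf1a cKO replicates 1 to 3, at 19.8, 70.1 and 10.2 normalized counts. In these libraries, loss of the allele was not measured apart from loss of acinar cells or RNA. The paper separately counted cells without PTF1A by immunofluorescence after tamoxifen. The control mice were 4 and the Ptf1a cKO mice 5 months old, so age and genotype cannot be told apart. Control replicate 1 and Ptf1a cKO replicate 2 were male and the other 4 mice were female. The time of day at which the mice were killed and their feeding state are not given in the sources used here, so no library can be placed at a known circadian time.

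The mammalian clock is a transcriptional feedback loop that runs in nearly every cell. The proteins of Arntl (BMAL1) and Clock bind E-box elements and activate the Per and Cry genes, whose proteins then repress them. Nr1d1 and Nr1d2 encode the REV-ERB receptors, which repress Arntl, and Dbp encodes an output factor that binds D-box elements. In peripheral tissues, including the pancreas, Arntl and Dbp transcripts are known to peak at nearly opposite times of day, so their ratio within a sample moves with the phase.

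The values are normalized read counts that the authors scaled across the 6 libraries, so read depth cannot be recovered from them. The level of the median gene was alike in the 6 libraries, at 125.0 to 128.5 normalized counts. Ptf1a itself had 606 ± 42.9 (SD, n = 3) normalized counts in control and 33.4 ± 32.1 (SD, n = 3) in Ptf1a cKO pancreata, in the direction of the labels. A list of 32 digestive enzymes and other acinar secretory proteins took 83.7% to 86.2% of the gene counts in the control and 39.4% to 66.2% in the Ptf1a cKO libraries. Levels are therefore compared on the authors' scale, which holds the median gene level, and log2 ratios within a library, taken with 3.41 normalized counts added to each gene, are given beside them. Rescaling every library to the same total instead moved the median log2 fold change of all genes from 0.036 to 1.49.

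In Ptf1a cKO pancreata, Per1 was higher and Clock was lower, and none of the other 8 clock genes passed the test. With an adjusted p-value under 0.05 (limma with Benjamini-Hochberg adjustment over all genes), 2 of 10 clock genes were called, against 33.9% of all genes. Genes called higher made up 17.1% and genes called lower 16.8% of the table. A count from 10 genes is too small to set the clock genes apart from the table, and the difference was not tested. Groups that did not overlap were found for the same 2 clock genes, against 50.8% of the table. Over the 10 genes the log2 fold change had a median of -0.15, beside 0.036 over the whole table. The remaining 8 genes are not thereby shown to be equal in both genotypes, and the plot of fold changes gives their 95% intervals.

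**Figure D1:**
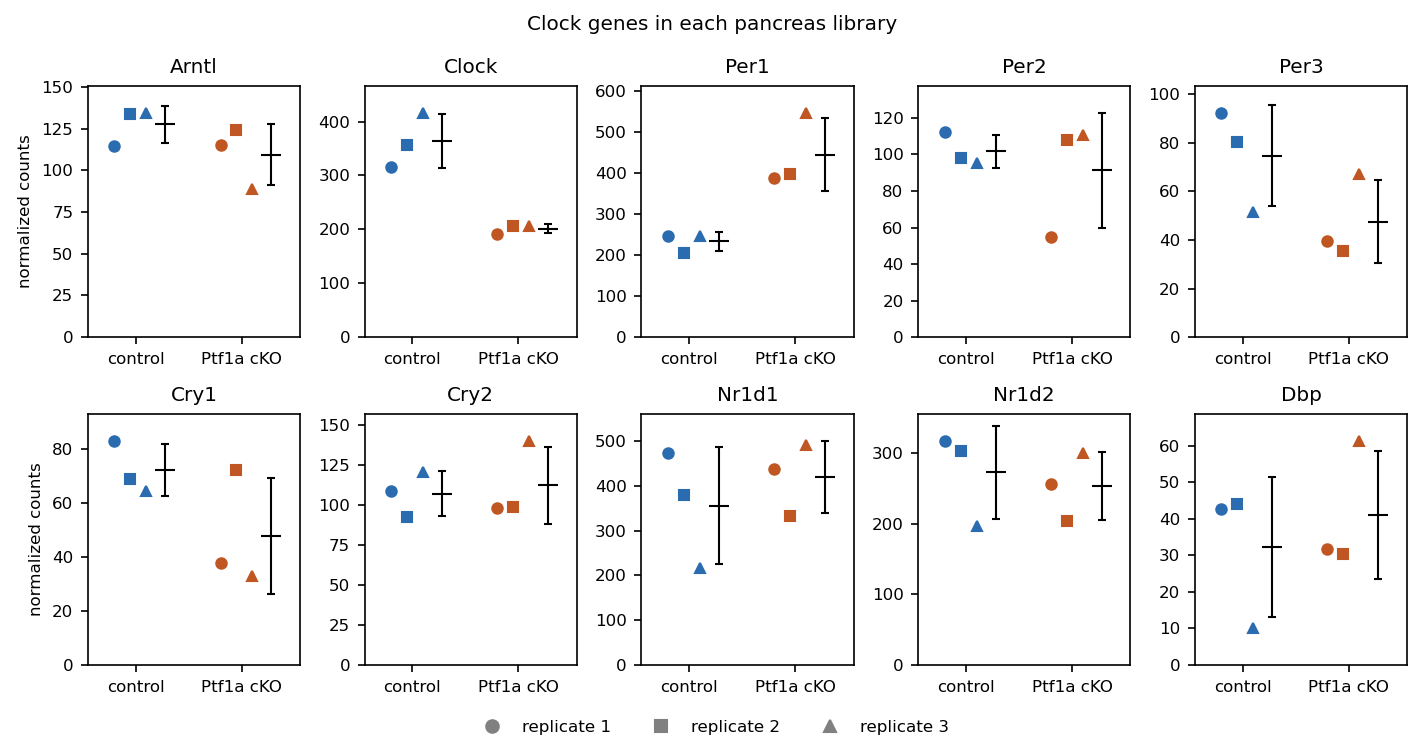
Normalized counts of the 10 clock genes in each library, on linear axes that start at 0, with a marker shape for each replicate number and the mean and SD of the 3 libraries beside each group. Only Clock and Per1 show groups that do not overlap, and control replicate 3 is the lowest library of its group for Per3, Nr1d1, Nr1d2 and Dbp.

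Of the activators, Clock encodes the partner of BMAL1 at E-boxes. It had 316, 357 and 416 normalized counts in the control libraries and 192, 207 and 206 in the Ptf1a cKO libraries. Every Ptf1a cKO library lay below every control library, and the Ptf1a cKO values spread far less than the control values. The log2 fold change was -0.83 (SE 0.13, limma adjusted p = 0.00145), a level 1.78-fold lower. With single libraries left out it ran from -0.93 to -0.73 and passed the threshold in all 6 fits. After rescaling to the same total it was 0.65, which is still under the 1.49 of the median gene.

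Arntl, the partner of Clock, did not follow it. It had 115, 134 and 134 normalized counts in the control and 115, 124 and 88.9 in the Ptf1a cKO libraries. The groups overlapped, and Ptf1a cKO replicate 3 was the lowest library. Its log2 fold change of -0.23 (95% interval -0.57 to 0.11) fell short of the threshold (limma adjusted p = 0.268). The ratio of Clock to Arntl within a library, chosen after the values were seen, was 1.48 ± 0.11 (SD, n = 3) on the log2 scale in control and 0.87 ± 0.27 (SD, n = 3) in Ptf1a cKO pancreata. The ratios of the groups did not overlap, with those of Ptf1a cKO lower (two-sided exact permutation p = 0.1, the least that 3 against 3 can give). The 2 paralogs that can take the place of these activators differed from each other. Arntl2, the paralog of Arntl, had 59.0, 53.6 and 52.4 normalized counts in control and 26.0, 35.1 and 25.3 in Ptf1a cKO libraries, and it was lower by limma (log2 fold change -0.87, adjusted p = 0.00985). Npas2, the paralog of Clock, had 22.4, 40.4 and 40.6 normalized counts in control and 44.3, 64.3 and 25.03 in Ptf1a cKO libraries, and its log2 fold change was 0.29 (limma adjusted p = 0.539). The lower direction of Arntl2, like that of Clock, rests on the scaling, since it was 0.51 after rescaling to the same total.

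Per1 encodes a repressor of the loop that also responds rapidly to hormones and other signals. It had 248, 206 and 247 normalized counts in the control libraries and 389.8, 399 and 548 in the Ptf1a cKO libraries. All Ptf1a cKO libraries lay above all control libraries, with Ptf1a cKO replicate 3 well above the others. The log2 fold change was 0.91 (SE 0.15, limma adjusted p = 0.00245), a level 1.88-fold higher. It was 0.75 without Ptf1a cKO replicate 3 and passed the threshold in all 6 fits with 1 library left out. It stayed higher under each of the 4 other scalings, with log2 fold changes between 0.73 and 2.39.

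**Figure D2:**
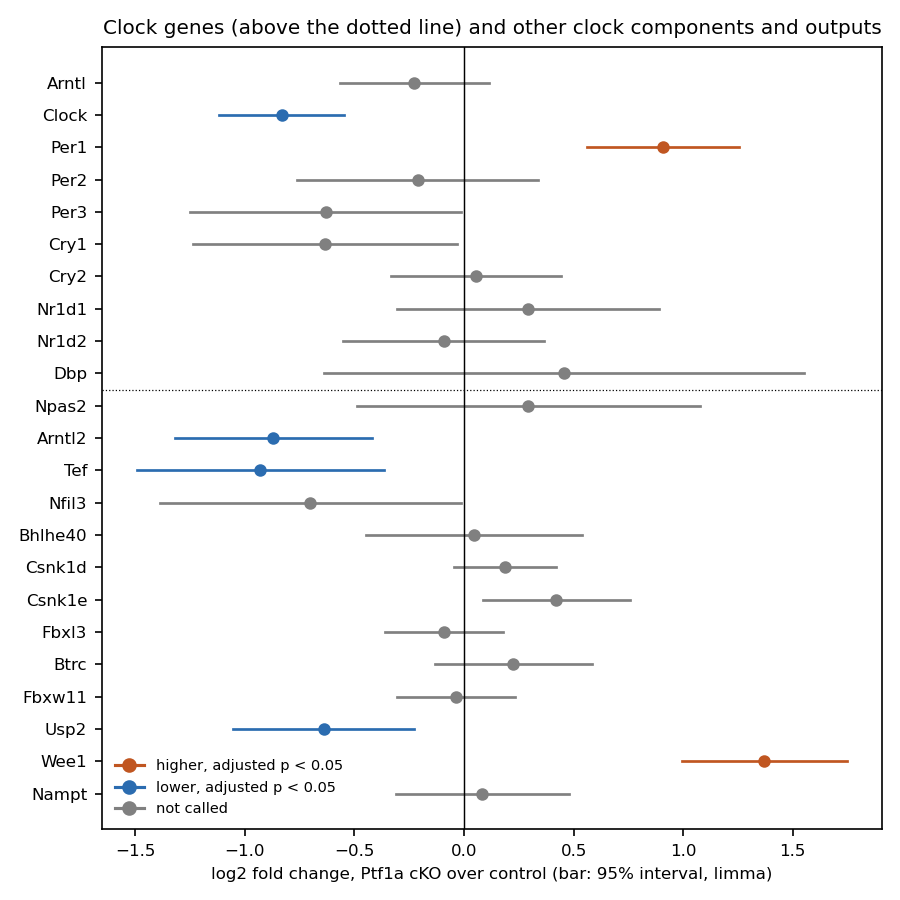
Log2 fold change of Ptf1a cKO over control for the 10 clock genes, above the dotted line, and for other clock components and outputs, with 95% intervals from limma. Per1 and Wee1 are coloured as higher, Clock, Arntl2, Tef and Usp2 as lower, all on the authors' scale, and the other genes plotted were not called.

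The promoter of Per1 holds an E-box, the element through which BMAL1 and CLOCK act, and its sequence is shown because Per1 rose while transcripts of Clock fell. Promoters were taken from RefSeq on GRCm38.p6, as 250 bases before and 50 after each annotated start, and 13 were found for 9 of the 10 genes, since a gene can have several starts. Searches on both strands used CACGTG for the E-box, CACGTT for the E'-box, TAGGTCA for the core of the element bound by ROR and REV-ERB receptors, and TTANGTAA for the D-box. The E-box and E'-box share their leading 5 letters but cannot match the same position. The Per1 window lies at chr11:69098753-69098818 on the plus strand, upstream of the start, and that of Cry1 at chr10:85185079-85185163 on the minus strand. Capitals mark the E-box and, in Cry1, also the E'-box read on the other strand.
Per1: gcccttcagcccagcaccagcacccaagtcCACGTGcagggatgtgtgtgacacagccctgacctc
Cry1: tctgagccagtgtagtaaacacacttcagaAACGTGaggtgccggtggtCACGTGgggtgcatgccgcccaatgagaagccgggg
An E-box was found in 2 of the 13 clock gene promoters, 1 each of Per1 and Cry1, beside 7.15% of all 32851 promoters. An E'-box was found in 3 of the 13, 1 each of Cry1, Cry2 and Nr1d1, beside 4.68% of all promoters. A match is a description of these letters only.

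Per2, the paralog of Per1, did not share its rise. It had 112, 97.9 and 95.2 normalized counts in control and 54.9, 108 and 111 in Ptf1a cKO libraries. A single library, Ptf1a cKO replicate 1, stood far below all others. The log2 fold change was -0.21 (95% interval -0.76 to 0.34, adjusted p = 0.528 from limma), and it was 0.10 without that library. The log2 ratio of Per1 to Per2 within a library, also chosen after the values were seen, was 1.17 ± 0.15 (SD, n = 3) in control and 2.29 ± 0.45 (SD, n = 3) in Ptf1a cKO pancreata. It was higher in every Ptf1a cKO library (exact permutation test, two-sided p = 0.1).

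Per3, the most distant member of the family, had 92.3, 80.3 and 51.6 normalized counts in control and 39.8, 35.6 and 67.1 in Ptf1a cKO libraries. The groups overlapped because control replicate 3 was low and Ptf1a cKO replicate 3 was high. The log2 fold change of -0.63 fell short of the threshold (limma adjusted p = 0.104). It was -0.87 without control replicate 3 (adjusted p = 0.0473, limma) and -0.89 without Ptf1a cKO replicate 3 (adjusted p = 0.0343, limma), so the call depended on these 2 libraries. Across all 6 fits with 1 library left out, the adjusted p-value from limma ran from 0.0343 to 0.297.

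Cry1 encodes the stronger repressor of the cryptochrome pair. It had 83.1, 68.8 and 64.6 normalized counts in control and 37.9, 72.3 and 32.9 in Ptf1a cKO libraries. Ptf1a cKO replicate 2, the only male of its group, lay within the control range, and control replicate 1, the other male, was the highest of all. The 2 female Ptf1a cKO libraries lay below both female controls. The log2 fold change of -0.63 fell short of the threshold (limma adjusted p = 0.0945), but passed it with sex as a covariate (adjusted p = 0.0340, limma) and without Ptf1a cKO replicate 2 (-0.96, adjusted p = 0.00512 from limma). With 1 male in each group, sex and the individual mouse cannot be told apart. Cry2, its paralog, had 109, 92.2 and 120.5 normalized counts in control and 97.9, 98.8 and 140.3 in Ptf1a cKO libraries. The groups overlapped, and the log2 fold change was 0.055 (95% interval -0.33 to 0.44, adjusted p = 0.827 from limma).

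Nr1d1 and Nr1d2 differed more between mice of a genotype than between genotypes. Nr1d1 had 473, 378 and 216 normalized counts in control and 436, 333 and 491 in Ptf1a cKO libraries. Nr1d2 had 318, 304 and 197 in control and 256, 204 and 300.4 in Ptf1a cKO libraries. Both genes were lowest in control replicate 3 among the controls and in Ptf1a cKO replicate 2 among the Ptf1a cKO mice, and both were highest in Ptf1a cKO replicate 3 within that group. The log2 fold changes were 0.29 (adjusted p = 0.417) and -0.093 (adjusted p = 0.750, limma). That of Nr1d1 was -0.027 without control replicate 3.

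Dbp, the D-box activator at the output of the clock, showed the widest range of the 10 genes. It had 42.7, 44.0 and 10.1 normalized counts in control and 31.6, 30.3 and 61.4 in Ptf1a cKO libraries. Control replicate 3 held the lowest and Ptf1a cKO replicate 3 the highest value, so the controls spanned a 4.34-fold and the Ptf1a cKO mice a 2.02-fold range. Between the genotypes the log2 fold change was 0.46 (95% interval -0.64 to 1.55, adjusted p = 0.495 from limma), and it turned to -0.14 without control replicate 3. These are low values, near the 10.6th percentile of gene levels in the table.

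The other members of the Dbp pathway moved partly with it. Tef, a second D-box activator, had 398, 378 and 227 normalized counts in control and 125.3, 174 and 220.04 in Ptf1a cKO libraries. It was lower in Ptf1a cKO by limma (log2 fold change -0.93, adjusted p = 0.0197), although Ptf1a cKO replicate 3 came close to control replicate 3, and it was 0.55 after rescaling to the same total. The call was kept in 3 of the 6 fits with 1 library left out, and the adjusted p-value from limma reached 0.0790 without control replicate 1. It was 0.0734 without control replicate 2 and 0.0631 without Ptf1a cKO replicate 1. Nfil3, the D-box repressor, had 110.2, 109.6 and 151 normalized counts in control and 124, 71.0 and 45.4 in Ptf1a cKO libraries, and its log2 fold change was -0.70 (limma adjusted p = 0.104). Its order was the reverse of that of Dbp in control replicate 3 and in Ptf1a cKO replicate 3, the highest and the lowest Nfil3 values of all.

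Windows from Per3, Nr1d1 and Tef are shown because these genes hold a searched motif and shared part of the order of Dbp. Like Dbp, they were lowest among the controls in replicate 3 and highest among the Ptf1a cKO libraries in replicate 3. Nr1d2, which did so too, held none of the searched motifs and is not shown. Per3 holds D-boxes, marked in capitals, at chr4:151044786-151044900 on the minus strand of GRCm38.p6. The Nr1d1 window at chr11:98775378-98775435 on the minus strand holds an E'-box read on the other strand, and the Tef window at chr15:81802516-81802581 on the plus strand an E-box.
Per3: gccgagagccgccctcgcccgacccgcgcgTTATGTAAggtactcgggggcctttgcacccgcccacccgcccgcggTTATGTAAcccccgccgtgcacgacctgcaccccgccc
Nr1d1: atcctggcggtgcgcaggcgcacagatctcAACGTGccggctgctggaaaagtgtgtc
Tef: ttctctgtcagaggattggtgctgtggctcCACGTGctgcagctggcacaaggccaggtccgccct
The D-box letters were found in 1 of the 13 promoters, that of Per3, where they occur at 205 and at 158 bases before the start, beside 2.32% of all promoters. The core of the REV-ERB element was found in 1 of the 13, of Arntl, beside 2.61% of all promoters.

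Phase was then compared between libraries by log2 ratios within each library. Dbp over Arntl was -1.36, -1.53 and -3.35 in the control and -1.76, -1.92 and -0.51 in the Ptf1a cKO libraries. Control replicate 3 stood at the low and Ptf1a cKO replicate 3 at the high end, with the other 4 libraries close together. The added 3.41 normalized counts draw the ratios of so low a gene together. Without them control replicate 3 stood at -3.73 and Ptf1a cKO replicate 3 at -0.53, and the ratio spanned 4.93-fold in the controls and 2.83-fold in the Ptf1a cKO mice. Between genotypes the mean ratio differed by 0.68, or by 0.78 without the added counts, which was less than the spread within the groups (exact permutation test, two-sided p = 0.6 for both).

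Nr1d1 over Arntl gave the same 2 libraries at its ends. It was 2.01, 1.48 and 0.67 on the log2 scale in control and 1.89, 1.40 and 2.42 in Ptf1a cKO libraries, and the genotypes differed by 0.52 (exact permutation test, two-sided p = 0.5). Nr1d2 over Arntl, which was not a planned ratio, was also lowest in control replicate 3, at 0.54, and highest in Ptf1a cKO replicate 3, at 1.72. These ratios share Arntl, which was lowest of all in Ptf1a cKO replicate 3 (88.9 normalized counts), so their agreement there is partly built in. Per3 over Arntl, also not planned, gave a different order. It was highest in control replicate 1, at -0.30, and lowest in Ptf1a cKO replicate 2, at -1.71. Control replicate 3 stood at -1.33 and Ptf1a cKO replicate 3 at -0.39. Per2 over Arntl gave yet another order, with Ptf1a cKO replicate 1 lowest at -1.02 and Ptf1a cKO replicate 3 highest at 0.31, and a difference of 0.015 between genotypes (exact permutation test, two-sided p = 1). For none of Dbp, Nr1d1 and Per2 over Arntl did the genotypes separate. Without control replicate 3 the differences of Dbp and Nr1d1 over Arntl were 0.050 and 0.16.

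**Figure D3:**
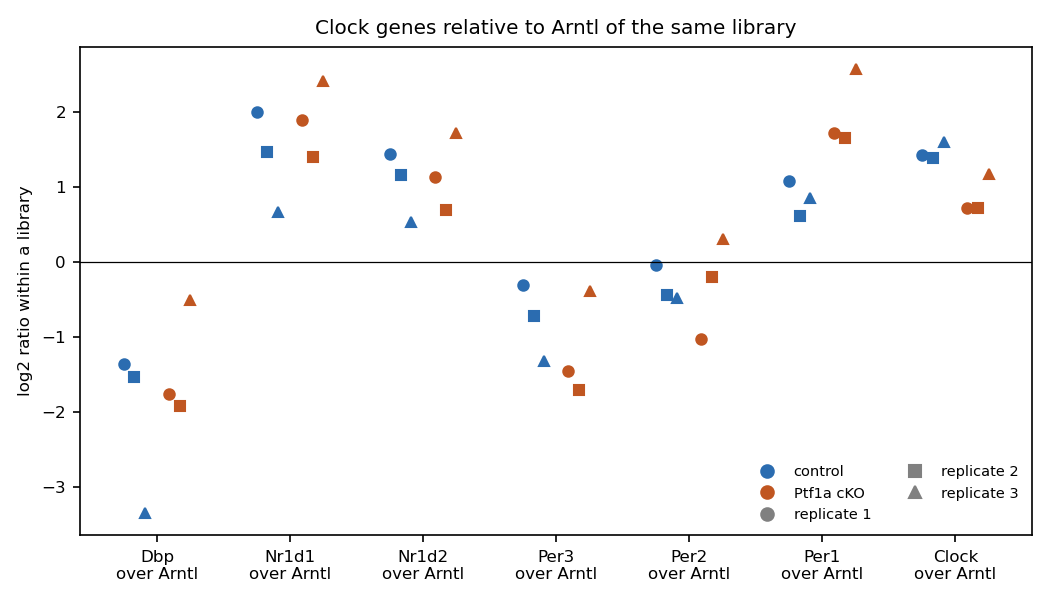
Log2 ratio of each gene to Arntl within each library, with a colour for each group and a marker shape for each replicate number. Dbp, Nr1d1 and Nr1d2 place control replicate 3 lowest and Ptf1a cKO replicate 3 highest, whereas Per1 and Clock over Arntl separate the genotypes. Per3 and Per2 over Arntl give other orders.

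Relative to Arntl, Per1 was thus the exception among the Per genes. Its log2 ratio was 1.09, 0.61 and 0.86 in control and 1.73, 1.66 and 2.58 in Ptf1a cKO libraries, and all Ptf1a cKO libraries were higher (exact permutation test, two-sided p = 0.1). This ratio was chosen after the values were seen.

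Most clock genes varied more between mice of the same genotype than the median gene did. The SD of log2 values within groups was above that of the median gene (0.19) for 9 of the 10 genes, and in the top 10% of all genes for 4 of them, Dbp (0.82), Nr1d1 (0.45), Per3 (0.44) and Cry1 (0.42). The spread was lowest for Clock (0.15), which in many tissues is known to cycle weakly. Of these 4 genes, Dbp lay at the 10.6th and Cry1 at the 24.5th percentile of gene levels, and Nr1d1 at the 85.3rd. The part of low levels in this spread was not tested.

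**Figure D4:**
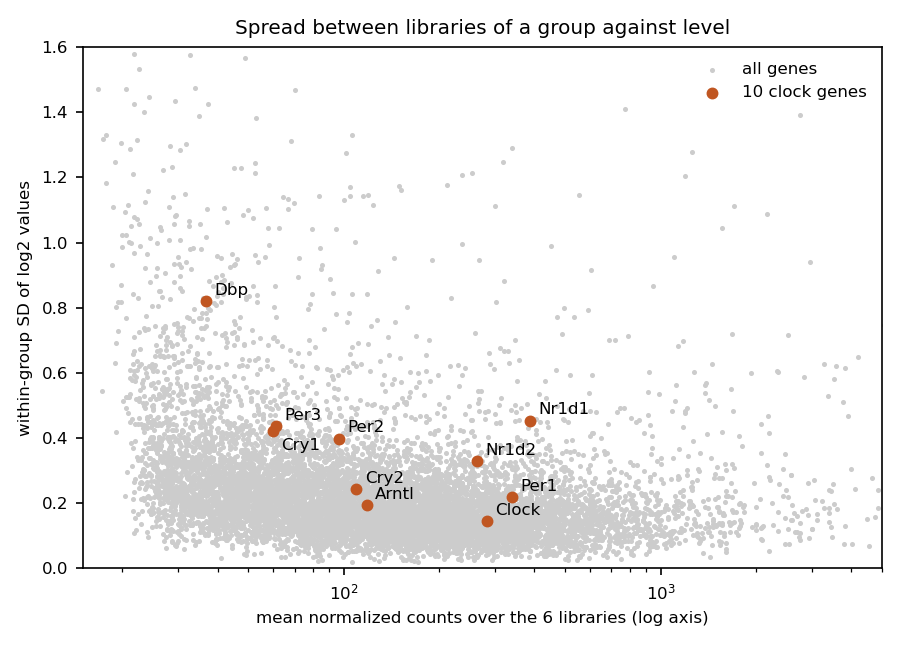
SD of log2 values within groups against the mean level of each gene on a log axis, with the 10 clock genes named and all genes within the axis limits in grey. Dbp, Nr1d1, Nr1d2, Per2, Per3 and Cry1 sit toward the upper part of the cloud at their level, and Clock, Per1, Arntl and Cry2 sit in its dense part.

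Part of the order of the libraries was shared by some of the genes. Each value was set against the mean of its group, and the deviations of each gene over the 6 libraries were compared with those of Dbp by Pearson's r, as a description, since the 6 points share 2 removed group means. Nr1d2 (0.94), Nr1d1 (0.92), Per3 (0.91) and, outside the 10 genes, Tef (0.90) and Usp2 (0.77) followed Dbp. Clock (-0.70), Arntl (-0.61), Nfil3 (-0.65) and Npas2 (-0.60) ran against it. Among the r of all other genes with Dbp, these lay at the 10.6th, 15.2nd, 12.8th and 15.7th percentiles. The r of the genes that followed Dbp lay between the 90.9th (Usp2) and the 98.4th (Nr1d2). Values were weaker for Cry2 (-0.012), Cry1 (-0.11), Per1 (0.18) and Per2 (0.33). The median over the 9 clock genes was 0.18, with 5 of 9 above 0, beside 0.012 over all other 10244 genes.

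Control replicate 3 was the lowest control library for 6 of the 10 clock genes, as it was for 39.3% of all genes, and the highest for Arntl, Clock and Cry2. Ptf1a cKO replicate 3 was the highest library of its group for 7 of the 10, as it was for 34.6% of all genes, and the lowest for Arntl and Cry1.

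Much of this rested on control replicate 3, and the rest largely on Ptf1a cKO replicate 3. Without control replicate 3, Dbp was close in the other controls (42.7 and 44.0) and in Ptf1a cKO replicates 1 and 2 (31.6 and 30.3). The r of a gene then mainly records how it stood in Ptf1a cKO replicate 3, and no share over all genes is given for it. Over the remaining 5 libraries, r with Dbp was 0.96 for Per3, 0.83 for Nr1d2, 0.78 for Tef and 0.65 for Nr1d1, and it was -0.89 for Arntl, -0.80 for Nfil3 and -0.78 for Npas2. For Clock it changed sign, to 0.27. The values of other clock genes moved as far, to 0.91 for Cry2, 0.88 for Per1 and -0.66 for Cry1, and these too rest largely on Ptf1a cKO replicate 3. Among the Ptf1a cKO mice alone, Dbp, Nr1d1, Nr1d2, Per3 and Tef were highest, and Arntl, Npas2 and Nfil3 lowest, in replicate 3. The genes most like Dbp over all 6 libraries were Dbnl, Zcchc6, Igf2r, Actn4 and Zfp182, all with r between 0.997 and 0.999, and the most opposite were Ggct, Fuz, Morf4l2, Dnajb6 and Zfp384, between -0.999 and -0.994. With so few points, 120 genes exceeded 0.95 and 95 lay below -0.95.

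**Figure D5:**
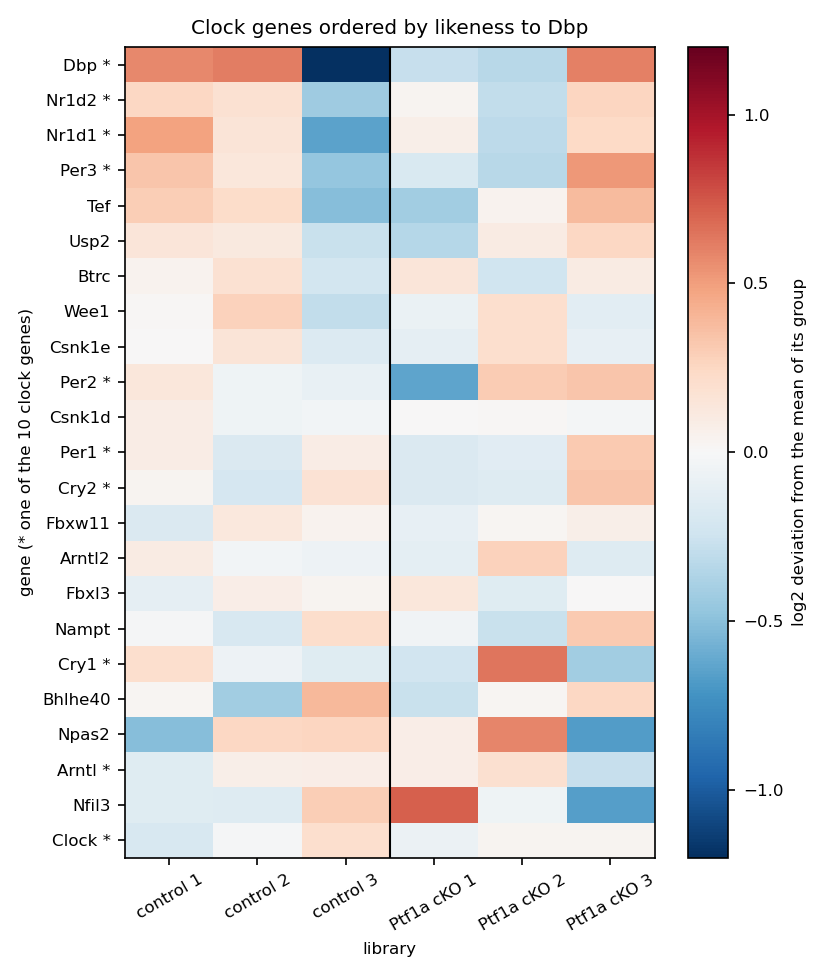
Log2 deviation of each gene shown from the mean of its group in each library, ordered by Pearson's r with Dbp over the 6 libraries. The uppermost genes, from Dbp to Usp2, are low in control replicate 3 and high in Ptf1a cKO replicate 3. Near the bottom, Nfil3 shows the reverse. Arntl and Npas2 are low in Ptf1a cKO replicate 3, but alike in control replicates 2 and 3 and lowest among the controls in replicate 1.

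A list of 21 other clock components, modifiers and outputs had 14 genes in the table. Of these 14, 1 was higher and 3 were lower in Ptf1a cKO, and 10 did not pass the test. Wee1, a clock-controlled kinase that holds cells before mitosis, had 90.4, 109.1 and 71.9 normalized counts in control and 222, 272 and 216 in Ptf1a cKO libraries. All Ptf1a cKO libraries lay far above the controls, and the log2 fold change was 1.37 (limma adjusted p = 4.98e-04). Usp2, which encodes a rhythmic deubiquitinase, had 152, 148 and 113 normalized counts in control and 67.3, 92.2 and 103 in Ptf1a cKO libraries, and was lower in each of the latter (limma log2 fold change -0.64, adjusted p = 0.0247, but 0.81 after rescaling to the same total). Usp2 kept its call in 3 of 6 fits with 1 library left out, and its adjusted p-value was 0.0896 without control replicate 1, 0.0848 without control replicate 2 and 0.0754 without Ptf1a cKO replicate 1. Arntl2 and Tef were the other lower genes. Csnk1d and Csnk1e, the kinases that mark PER proteins for degradation, had log2 fold changes of 0.19 and 0.42 and were not called (adjusted p = 0.189 and 0.0552, limma). The median log2 fold change of the 14 genes was 0.0053, and their calls (28.6%) were close to the share over all genes.

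Genes that glucocorticoids act through were examined because the hormone also acts on Per1. Of 7 genes, all in the table, 1 was higher and 1 was lower, and these 28.6% called stand beside 33.9% of all genes. Nr3c1, the glucocorticoid receptor, had 580.3, 636 and 633 normalized counts in control and 367, 384 and 391 in Ptf1a cKO libraries. Its groups were far apart, and its log2 fold change was -0.69 (limma adjusted p = 0.00139), which turned to 0.80 after rescaling to the same total. Tsc22d3, a glucocorticoid-induced gene, had 269, 307 and 299 normalized counts in control and 445, 399 and 815 in Ptf1a cKO libraries, and was higher by limma (log2 fold change 0.84, adjusted p = 0.0232). Its call was lost without any single control library, with adjusted p-values from limma of 0.0819 without replicate 1, 0.0573 without replicate 2 and 0.0592 without replicate 3. Ptf1a cKO replicate 3, the library with the most Per1, also held the most Tsc22d3, Sgk1 (3329 normalized counts, against 997 to 1267 in the other 5), Fkbp5 (441) and Dusp1 (96.3). In that library Klf9 (550) lay below Ptf1a cKO replicate 2 (632). Zbtb16 (66.5) lay below all controls (124.9 to 159.6) and below Ptf1a cKO replicate 1 (206). Ptf1a cKO replicate 3 was the highest library of its group for 34.6% of all genes. The part of the glucocorticoid list in the level of Per1 was not tested. Sgk1, Fkbp5, Dusp1, Klf9 and Zbtb16 were not called.

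Genes that follow body temperature, itself a signal to peripheral clocks, were also counted. Of 8 listed genes 6 are in the table, and 3 of these were higher, the chaperone genes Hspa8 (log2 fold change 0.80, adjusted p = 0.00352), Hsph1 (0.59, adjusted p = 0.00439) and Hsp90aa1 (0.51, adjusted p = 0.0185, all limma), beside 17.1% of all genes called higher. The call of Hsp90aa1 was lost without control replicate 2, Ptf1a cKO replicate 2 or Ptf1a cKO replicate 3, with adjusted p-values of 0.0711, 0.0536 and 0.0550 (limma), and also after rescaling to the same total without digestive enzymes (0.34, limma adjusted p = 0.140). Dnajb1, a further chaperone gene, had a log2 fold change of 0.11 and was not called (limma adjusted p = 0.508). The cold-inducible genes Cirbp and Rbm3 had log2 fold changes of 0.28 and 0.11 and were not called.

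The cell makeup of the libraries moved with genotype and, in part, with the libraries that stood apart. All 10 listed acinar markers were present, with a sum of 9590560 to 12081100 normalized counts in control and 1209090 to 3758820 in Ptf1a cKO libraries. Fibroblast and stellate markers (7 of 7 present) summed to 2711 to 3031 in control and 5222 to 9804 in Ptf1a cKO libraries, and leukocyte markers (5 of 7) to 378 to 650 and 1029 to 2101. Ductal markers (5 of 6) summed to 1854 to 2621 and 22194 to 106392, mostly through Spp1. Endothelial markers (5 of 5) summed to 594 to 760 and 587 to 734. Smooth muscle markers (3 of 4) summed to 172 to 188 and 216 to 477, and no neural marker of 4 is in the table. In bulk RNA, fewer cells of a type and less RNA per cell cannot be told apart, for Clock and Per1 as for any other gene.

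Control replicate 3, with the lowest Dbp, had an endocrine marker sum (6 of 6 present) of 42603 normalized counts, against 11988 and 11345 in the other controls, and 27137, 5813 and 33090 in the Ptf1a cKO libraries. Ptf1a cKO replicate 3, with the highest Dbp and Per1, had the highest adipose marker sum (4 of 5 present), 1159 against 167 to 477 in the other 5 libraries, and the highest lymph node sum (2 of 4 present), 458 against 7.77 to 20.6. Within the latter, Glycam1, a lymph node vessel gene, reached 356 and was 0 in Ptf1a cKO replicates 1 and 2. The part of these cell types in the clock gene levels was not tested.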

How the data were processed

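Reads from 6 whole-pancreas libraries were processed by the authors. Their processing notes name TopHat2 2.0.4, Bowtie 0.12.7.0, SAMtools 0.1.18.0, HTSeq 0.6.0 and the mm9 build, and the authors normalized by TMM in edgeR. The deposited table holds 1 signal per gene symbol and library, a normalized count with decimals from which whole reads could not be recovered, so the depth behind a value is not in the table and precision rests on 3 mice a group. The step that set its scale is not given in the sources used here. A further 3 entries without a gene, 75.7% to 82.6% of a library, were left out.

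Values were divided by 13.6, so that the mean library total is 1 M, and log2(value + 0.25) was taken, so changes of low genes are understated. Groups were compared by limma 3.58.1 in R 4.3.3 with a mean-variance trend, two-sided, with Benjamini-Hochberg adjustment over 10245 genes. The fit was run on simulated data with independent noise at the spread of these genes. Such data cannot show how it treats shifts shared by many genes of a library. Ratios were compared by exact permutation tests. The p-values measure the spread between these mice.

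The clock genes and lists were chosen with earlier results of these data known. Named are all clock genes, the called genes of the other lists, and the 5 genes most like and 5 most unlike Dbp. Other genes, and the ratios of Per1 and Clock, were picked after their values were seen. The ratios of Nr1d2 and Per3 to Arntl were not planned. Among the wider clock list, 1 gene is counted but not reported here.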

Additional observations from a re-analysis of the deposited data

How the results depend on the processing

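The calls of Clock and Per1 were kept under each alternative run, except that Clock turned to a higher level when every library was rescaled to the same total. Under that scaling 9719 genes were called in place of 3475, 98.7% of them higher in place of 50.4%, and the counts rose to 10 of 10 clock genes, 12 of the wider clock list, 7 of the glucocorticoid list and 6 of the temperature list, all higher. Log2 fold changes that turned under it were Arntl (1.23), Clock (0.65), Per2 (1.24), Per3 (0.79), Cry1 (0.78), Nr1d2 (1.39), Arntl2 (0.51), Tef (0.55), Usp2 (0.81) and Nr3c1 (0.80), all under the 1.49 of the median gene. Rescaling to the same total without digestive enzymes moved the median gene to -0.14, left 29.7% of called genes higher, added Per3 to the called clock genes and Nfil3 to the wider list, left 2 of the temperature list and turned Cry2 to -0.12. With an adjusted p-value under 0.01, 1794 genes were called, with 2 of the wider and 1 of the glucocorticoid list.

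With each library left out in turn, 2 to 3 clock genes, 2 to 4 of the wider, 1 to 4 of the glucocorticoid and 2 to 3 of the temperature list were called. Single fits turned Per2 (-0.38 to 0.10), Cry2 (-0.11 to 0.14), Dbp (-0.14 to 0.76), Nr1d1 (-0.027 to 0.53) and Nr1d2 (-0.31 to 0.053), none of them called. The ratio of Per2 to Arntl ran from -0.29 to 0.37, that of Dbp to Arntl from 0.050 to 1.04 and that of Nr1d1 to Arntl from 0.16 to 0.83. A minimum mean of 68.2 normalized counts left Cry1, Per3, Dbp, Npas2 and Arntl2 untested. Deviations of same-numbered libraries correlated at 0.039, 0.13 and 0.14 over genes, so the numbers were not taken as pairs. With the replicate number as a block, 2 clock genes were called, as without it, 5 in place of 4 of the wider list, 2 of the glucocorticoid and 3 of the temperature list, and 3525 in place of 3475 of all genes. Causes of these changes were not tested beyond what each setting does by construction. Depth cannot be read from the values, which limits what can be said of Dbp at 10.1 normalized counts.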
